A study of Drosophila melanogaster with 15 samples.

Results

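The comparison set 3 libraries labelled Mef2>Deaf1, the genotype made to overexpress Deaf1 in muscle, directly against 3 libraries labelled Mef2>Gsk3CA. These 6 of the 15 RNA-seq libraries of the series were taken by their genotype labels, and each held between 19914820 and 30320169 counts on genes. RNA came from filleted Drosophila melanogaster larvae, a preparation made up mostly of body wall muscle that also keeps the epidermis. The Mef2-Gal4 driver was common to all larvae, and its activity is not limited to the body wall, since muscle of the gut and part of the brain express it too. Mef2>Deaf1 larvae carried UAS-Deaf1 in addition, larvae labelled Mef2>Gsk3CA carried UAS-Gsk3CA, a constitutively active form of the kinase, and Mef2>+ larvae carried no second transgene. The 3 Mef2>+ libraries are given beside both genotypes as a level without a transgene. The 6 libraries of the remaining genotypes, Mef2>Deaf1RNAi and Mef2>whiteRNAi, entered the estimate of spread. The study calls the 3 libraries of a genotype biological replicates. Larval age and sex are not given for the RNA-seq samples in the sources used here.

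Deaf1 is a transcription factor that binds DNA, and in Drosophila it is known to bind the control regions of genes for antimicrobial peptides. Gsk3, encoded by shaggy (sgg), is a protein kinase that marks the Wnt effector Armadillo for destruction and acts on glycogen synthase in the insulin pathway. The larval body wall muscle is a set of large single fibers that contract through sarcomeres of myosin and actin and draw much of their energy from glycolysis.

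The genes named by the transgenes were read first. Deaf1 stood at 40.6, 41.4 and 47.7 CPM (counts scaled to a common library size) in Mef2>Deaf1, against 33.1, 34.2 and 41.0 CPM in the libraries labelled Gsk3CA and 35.7, 37.0 and 31.8 CPM in Mef2>+. The lowest Mef2>Deaf1 library lay below the highest library labelled Gsk3CA, so the genotypes overlapped. Mef2>whiteRNAi, the RNAi control, held 38.7 to 43.8 CPM of Deaf1 and thus overlapped Mef2>Deaf1 too. The log2 fold change of Mef2>Deaf1 over the libraries labelled Gsk3CA was 0.26 (standard error 0.10), with an adjusted p of 0.0612 from the quasi-likelihood fit in edgeR, adjusted over all genes by Benjamini-Hochberg. Over Mef2>+ it was 0.31 (adjusted p = 0.0581), so Deaf1 mRNA passed the threshold against neither. A two-sided exact permutation test of the 6 values gave p = 0.2, where 3 against 3 libraries cannot go below 0.1. The kinase gene sgg was at 336, 282 and 429 CPM in Mef2>Deaf1, against 339, 335.5 and 526 CPM in the libraries labelled Gsk3CA and 418.5, 433 and 254 CPM in Mef2>+. All 3 genotypes overlapped for sgg, whose exons overlap lncRNA:CR45197 on the same strand. The change of −0.20 on the log2 scale (standard error 0.24) did not pass (adjusted p = 0.567, exact permutation p = 0.6). Because neither transgene's own gene passed, both genotypes are named by their labels. The eye colour gene w, which serves as the marker of many transgenes, stood at 32.1, 30.7 and 30.2 CPM in Mef2>Deaf1 and 36.7, 29.9 and 55.1 CPM in the libraries labelled Gsk3CA (log2 fold change −0.39, adjusted p = 0.141, exact permutation p = 0.4).

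Of 10930 genes tested, 1429 (13.1%) were higher and 1868 (17.1%) were lower in Mef2>Deaf1 than in the libraries labelled Gsk3CA at an adjusted p under 0.05. The libraries of the 2 genotypes did not overlap for 43.4% of all genes. Testis genes made up much of the lower side. The share of counts on testis genes and genes that track them was 0.161, 0.164 and 0.230% in Mef2>Deaf1, against 1.45, 1.67 and 0.381% in the libraries labelled Gsk3CA and 0.15, 0.136 and 0.368% in Mef2>+. Replicates 1 and 2 of the libraries labelled Gsk3CA were therefore far above the other libraries, and replicate 3 was close to replicate 3 of Mef2>+. With 2 testis lists and 1083 genes that track them set aside, 9757 genes remained. Of these, 1423 (14.6%) were higher and 967 (9.9%) lower in Mef2>Deaf1. Among these 271 were higher and 529 were lower by at least 1 on the log2 scale. These counts come from the fit and scaling over all genes. Scaled and fitted again without testis and tracking genes, 736 genes were higher and 1246 lower, with a median of 0.003. The direction with more calls was thus the opposite in that fit. The results below leave testis genes out, and a list is read against a median log2 fold change of 0.11 over the 9757 genes, or 0.06 over all genes tested.

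The size of the difference depended on the libraries and the scaling. Replicate 3 of the libraries labelled Gsk3CA correlated with replicates 1 and 2 at 0.943 and 0.916 over genes, where the pair of replicates 1 and 2 reached 0.990 and the Mef2>Deaf1 pairs ranged from 0.954 to 0.982. With RLE scaling 862 genes were higher and 2210 lower, so the share of higher genes among those called was 28.1%, against 43.3% with TMM scaling. Fitted on the 6 libraries alone, 281 genes were higher and 739 lower. With the mean level of the testis lists as a covariate, a measure that itself differs between the genotypes, 90 were higher and 61 lower. Leaving out 1 library gave 1147 (without replicate 1 of the libraries labelled Gsk3CA) to 3815 genes (without replicate 3), and 1456 and 1497 without Mef2>Deaf1 replicate 1 or 2. Of 160 named genes past the threshold, 16 kept their call under each of the 16 alternatives that could be fitted to them.

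**Figure D1:**
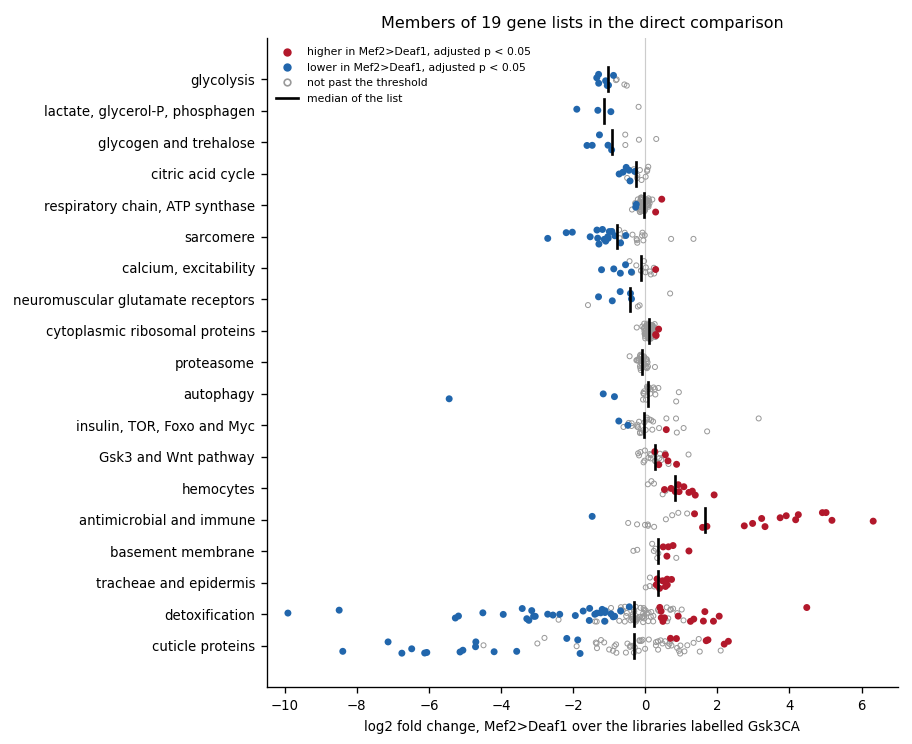
Log2 fold change of Mef2>Deaf1 over the libraries labelled Gsk3CA (x axis) for the tested members of 19 gene lists (rows), with filled points for genes past an adjusted p of 0.05, open points for the others and a black bar at the list's median. The glycolytic list lies wholly below 0 with a median of −1.02, the antimicrobial and immune list has a median of 1.65, and the respiratory chain list is centred at −0.04. The far left point of the autophagy row is a gene that tracks the testis lists.

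Genes of the contractile apparatus were lower in Mef2>Deaf1. Of 32 sarcomere genes tested, 17 were lower and none was higher, with a median log2 fold change of −0.78. The libraries did not overlap for 24 of the 32 genes. Summed over the list, the level was 46870, 39770 and 35800 CPM in Mef2>Deaf1, against 80990, 82060 and 63770 CPM in the libraries labelled Gsk3CA and 99050, 93150 and 132500 CPM in Mef2>+. Mef2>Deaf1 was the lowest of the 3 genotypes in every library, and the libraries labelled Gsk3CA lay between. The sums were 28690, 43670 and 65800 CPM in Mef2>whiteRNAi, an RNAi control that is no part of the comparison, so that genotype was as low as Mef2>Deaf1 in 2 of its 3 libraries. In bulk RNA, fewer cells of a type and less RNA per cell cannot be told apart, here or for any gene group below.

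Mhc, the muscle myosin heavy chain, had 2171, 1625 and 1011 CPM in Mef2>Deaf1, against 7127, 6793 and 5608 CPM in the libraries labelled Gsk3CA. Every Mef2>Deaf1 library lay below every library labelled Gsk3CA (log2 fold change −2.02, standard error 0.45, adjusted p = 0.00966). Mef2>+ held 9247, 8404 and 16080 CPM of Mhc. Unc-89, the fly obscurin of the M-line, had the largest fall of the list. It stood at 75.5, 66.3 and 40.6 CPM in Mef2>Deaf1, against 462, 438 and 288 CPM in the libraries labelled Gsk3CA, with no overlap (−2.70, standard error 0.43, adjusted p = 0.00201). In Mef2>+ it was at 420, 365 and 763 CPM, which overlaps the libraries labelled Gsk3CA. TpnC47D, a troponin C that binds calcium on the thin filament, was at 22.2, 15.9 and 6.39 CPM in Mef2>Deaf1, against 52.2, 37.2 and 115 CPM in the libraries labelled Gsk3CA (−2.19, standard error 0.55, adjusted p = 0.0159). Among the abundant members looked at after their values were seen, the larval actin Act57B changed by −1.34 (adjusted p = 0.013) and the myosin light chain Mlc2 by −1.28 (adjusted p = 0.0358).

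Set against the shared Mef2>+ libraries, 21 of the 32 sarcomere genes were lower in Mef2>Deaf1 (median −1.20) and 1 was lower in the libraries labelled Gsk3CA (median −0.42). Over all genes, 5.06% were higher and 7.38% lower in Mef2>Deaf1 than in Mef2>+, and 5.19% were higher and 8.87% lower in the libraries labelled Gsk3CA than in Mef2>+. Both comparisons use the same 3 control libraries. In the direct comparison the number of lower sarcomere genes was 12 without Mef2>Deaf1 replicate 1, 8 (with 1 gene higher) without Mef2>Deaf1 replicate 2, 9 without replicate 1 or replicate 2 of the libraries labelled Gsk3CA, 11 without Mef2>Deaf1 replicate 3 and 21 without replicate 3 of the libraries labelled Gsk3CA. With the testis covariate none of the 32 passed and the median was −0.50.

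**Figure D2:**
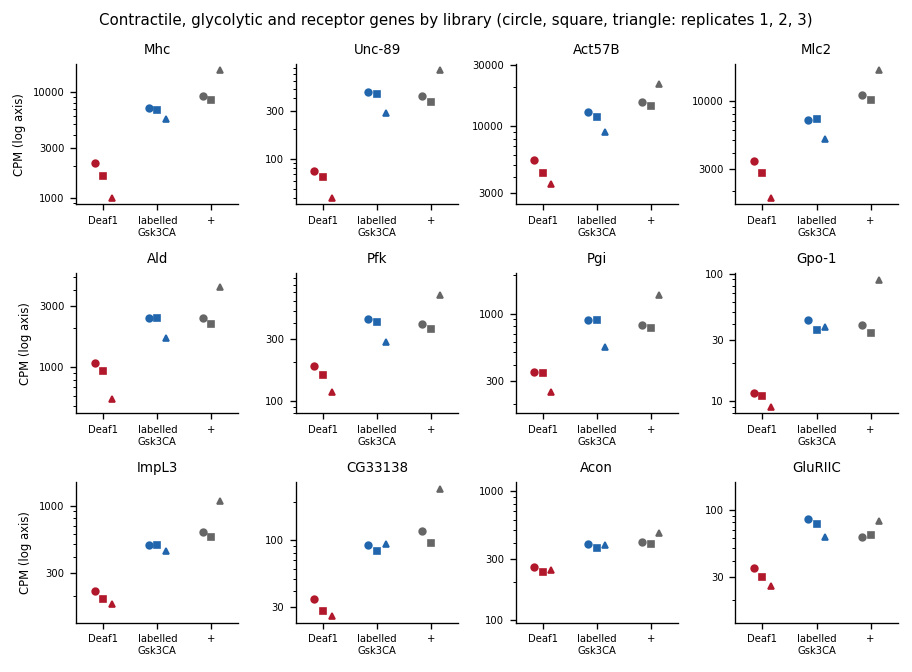
CPM (log axis) of 12 muscle and energy genes in each library of Mef2>Deaf1, the libraries labelled Gsk3CA and Mef2>+, with a symbol for each replicate. For Mhc the Mef2>Deaf1 libraries sit between 1011 and 2171 CPM, the libraries labelled Gsk3CA between 5608 and 7127 CPM and Mef2>+ between 8404 and 16080 CPM, and no gene shown has a Mef2>Deaf1 library as high as any library labelled Gsk3CA.

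Some genes that release and take up calcium were lower in Mef2>Deaf1, though most of their list did not pass. Of 18 genes for calcium handling and excitability, 5 were lower, 1 was higher and 12 did not pass (median −0.12). Over all genes 17.1% were lower and 13.1% higher, so the lower share of the list lay above that level and the higher share below it. The libraries did not overlap for 9 of the 18, a share near the 43.4% over all genes. Rya-r44F, the ryanodine receptor that releases calcium from the sarcoplasmic reticulum, was at 85.1, 81.03 and 70.6 CPM in Mef2>Deaf1, against 195, 183 and 170.2 CPM in the libraries labelled Gsk3CA. No library overlapped (−1.21, standard error 0.33, adjusted p = 0.0207). Mef2>+ held 215, 195 and 314.5 CPM of Rya-r44F, and Mef2>Deaf1RNAi 95.4 to 118.5 CPM. Mef2>whiteRNAi held 39.8 to 131.5 CPM and overlapped Mef2>Deaf1. Ca-P60A, the SERCA pump that returns calcium to the reticulum, had 894, 754 and 714 CPM in Mef2>Deaf1, against 1507, 1419 and 1400 CPM in the libraries labelled Gsk3CA (−0.87, adjusted p = 0.0263), and its exons overlap CG2812 on the opposite strand. Ca-beta, an auxiliary subunit of voltage-gated calcium channels, changed by −0.69 (adjusted p = 0.00583). The 1 higher gene was Itp-r83A, the receptor for inositol trisphosphate, with 85.6, 78.8 and 85.5 CPM in Mef2>Deaf1 and 73.0, 70.1 and 61.4 CPM in the libraries labelled Gsk3CA (0.29, adjusted p = 0.0324). Without Mef2>Deaf1 replicate 1 or replicate 2 the number of lower genes was 1, and without either replicate 1 or replicate 2 of the libraries labelled Gsk3CA it was 2. With replicate 3 of Mef2>Deaf1 left out it was 3, with replicate 3 of the libraries labelled Gsk3CA left out it was 7, and Itp-r83A passed in none of the fits that left out 1 library.

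Of 9 genes of the neuromuscular glutamate receptor list, 5 were lower and none was higher (median −0.41). The libraries did not overlap for 7 of the 9 (77.8%, against 43.4% over all genes). GluRIIC, a receptor subunit that every receptor of the larval muscle needs, stood at 35.1, 30.2 and 25.7 CPM in Mef2>Deaf1, against 84.4, 77.4 and 61.3 CPM in the libraries labelled Gsk3CA and 61.0, 63.7 and 81.3 CPM in Mef2>+. Mef2>Deaf1 was lowest of these genotypes, and the others overlapped (−1.29, standard error 0.22, adjusted p = 0.00279). Mef2>whiteRNAi, at 33.7 to 67.8 CPM, overlapped Mef2>Deaf1. GluRIIB, an alternative subunit, had 46.4, 38.9 and 46.1 CPM in Mef2>Deaf1 and 88.3, 85.0 and 74.2 CPM in the libraries labelled Gsk3CA (−0.91, adjusted p = 0.0199). Mef2>+ held 69.9, 67.0 and 38.1 CPM, Mef2>Deaf1RNAi 29.2 to 48.9 CPM and Mef2>whiteRNAi 35.1 to 56.0 CPM. Each of these overlapped Mef2>Deaf1, and the libraries labelled Gsk3CA were the high ones for GluRIIB. GluRIIE, another subunit of all larval receptors, changed by −0.70 (adjusted p = 0.00624), and its exons overlap GluRIID on the same strand. Leaving out 1 library gave 3 (without Mef2>Deaf1 replicate 2) to 6 lower genes. With the testis covariate none of the 9 passed, and the median was −0.54.

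Among 15 genes of the muscle identity list, most of them transcription factors, 1 was higher and 1 lower. The higher gene was zfh1, a zinc finger repressor of muscle differentiation, with 58.1, 50.6 and 65.4 CPM in Mef2>Deaf1 and 32.5, 32.4 and 38.9 CPM in the libraries labelled Gsk3CA (0.75, standard error 0.12, adjusted p = 0.00247). Mef2>+ was at 33.3, 31.9 and 33.5 CPM, close to the libraries labelled Gsk3CA. The lower gene was mib2, a ubiquitin ligase needed for the upkeep of muscle fibers, with 58.7, 55 and 61.6 CPM in Mef2>Deaf1 against 87.1, 78.3 and 73.1 CPM in the libraries labelled Gsk3CA (−0.44, adjusted p = 0.00258). Exons of both genes overlap another gene on the opposite strand.

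Glycolytic genes were lower in Mef2>Deaf1. All 11 had a negative log2 fold change, 7 passed the threshold, and the median was −1.02. The summed level of the list was 6973, 6470 and 4504 CPM in Mef2>Deaf1, against 13170, 12980 and 9489 CPM in the libraries labelled Gsk3CA and 14590, 13550 and 23870 CPM in Mef2>+. No Mef2>Deaf1 library reached a library of either other genotype. Mef2>whiteRNAi, the RNAi control, held 5846, 9900 and 14760 CPM and overlapped both Mef2>Deaf1 and the libraries labelled Gsk3CA. Ald, the aldolase that splits fructose bisphosphate, had 1085, 926 and 562 CPM in Mef2>Deaf1 and 2411, 2424 and 1696 CPM in the libraries labelled Gsk3CA (−1.34, standard error 0.38, adjusted p = 0.0244). Pfk, the phosphofructokinase that commits sugar to glycolysis, had 185, 158 and 118 CPM in Mef2>Deaf1 and 434, 412 and 285 CPM in the libraries labelled Gsk3CA (−1.29, standard error 0.35, adjusted p = 0.0198). Both genes kept the 2 genotypes apart in every library.

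Pgi, the glucose phosphate isomerase, stood at 355, 348 and 248 CPM in Mef2>Deaf1, against 890, 887 and 549 CPM in the libraries labelled Gsk3CA (−1.29, adjusted p = 0.0178). The further genes past the threshold were PyK, the pyruvate kinase (−1.10, adjusted p = 0.0303), Tpi, the triose phosphate isomerase (−1.05, adjusted p = 0.0288), Eno, the enolase (−1.02, adjusted p = 0.0458), and Pglym78, a phosphoglycerate mutase (−0.88, adjusted p = 0.0463). The remaining members did not pass. Gapdh1 and Gapdh2, both glyceraldehyde phosphate dehydrogenases, were at −0.81 (adjusted p = 0.0659) and −0.79 (adjusted p = 0.0719), and Pgk, the phosphoglycerate kinase, was at −0.58 (adjusted p = 0.0968). Hex-A, a hexokinase at the head of the pathway, was at −0.51 (adjusted p = 0.301) and was the 1 member whose libraries overlapped, with 196, 219 and 225 CPM in Mef2>Deaf1 and 340, 377 and 196 CPM in the libraries labelled Gsk3CA.

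All 7 glycolytic calls depended on single libraries. Without replicate 1 or replicate 2 of the libraries labelled Gsk3CA none passed, without Mef2>Deaf1 replicate 2 or replicate 3 1 passed, without Mef2>Deaf1 replicate 1 3 passed, and without replicate 3 of the libraries labelled Gsk3CA 9 passed. The median stayed between −1.27 and −0.84 in these fits. With the testis covariate the median was −0.51 and none passed. Over the shared Mef2>+ libraries the medians were −1.52 in Mef2>Deaf1 (10 lower) and −0.42 in the libraries labelled Gsk3CA (none lower).

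Genes next to glycolysis were lower as well. Of the 4 genes for lactate, glycerol phosphate and phosphagen, 3 were lower (median −1.13). Gpo-1, the mitochondrial glycerol phosphate oxidase, was at 11.5, 11.1 and 8.96 CPM in Mef2>Deaf1, against 42.9, 36.2 and 38.4 CPM in the libraries labelled Gsk3CA (−1.90, standard error 0.32, adjusted p = 0.00248). ImpL3, the lactate dehydrogenase, had 216, 189 and 171 CPM in Mef2>Deaf1 and 494, 492 and 448 CPM in the libraries labelled Gsk3CA (−1.31, standard error 0.36, adjusted p = 0.0209). Both genes were below every library labelled Gsk3CA. Gpdh, the glycerol phosphate dehydrogenase of the cytosol, changed by −0.95 (adjusted p = 0.0393). Argk, the arginine kinase that buffers ATP in muscle and was looked at after its values were seen, overlapped, with 3750, 3516 and 2556 CPM in Mef2>Deaf1 and 4417, 4155 and 2586 CPM in the libraries labelled Gsk3CA (−0.18, adjusted p = 0.752). Without replicate 3 of the libraries labelled Gsk3CA 3 of the 4 genes passed, and without any other single library 1 did.

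Of 9 genes for glycogen and trehalose, 5 were lower (median −0.93). CG33138, the glycogen branching enzyme AGBE, had 34.4, 28.05 and 25.3 CPM in Mef2>Deaf1, against 92.5, 83.1 and 93.4 CPM in the libraries labelled Gsk3CA (−1.61, standard error 0.36, adjusted p = 0.00974). Tret1-1, a trehalose transporter, was at 116, 130 and 131 CPM in Mef2>Deaf1 and 419, 451 and 174 CPM in the libraries labelled Gsk3CA (−1.47, adjusted p = 0.0361). Replicate 3 of the libraries labelled Gsk3CA was close to Mef2>Deaf1 for Tret1-1. Mef2>+ held 316, 297 and 122 CPM, Mef2>Deaf1RNAi 103 to 125 CPM and Mef2>whiteRNAi 92.7 to 326 CPM, and each overlapped Mef2>Deaf1. GlyP, the glycogen phosphorylase that releases glucose phosphate, had 1029, 806 and 559 CPM in Mef2>Deaf1 and 2333, 2275 and 1166 CPM in the libraries labelled Gsk3CA (−1.27, adjusted p = 0.0447). The 5 calls were 1 without Mef2>Deaf1 replicate 2, or without replicate 1 or replicate 2 of the libraries labelled Gsk3CA, 2 without Mef2>Deaf1 replicate 1 or replicate 3, and 7 without replicate 3 of the libraries labelled Gsk3CA.

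The citric acid cycle differed less and the respiratory chain hardly at all. Of 16 genes of the cycle, 6 were lower and none was higher (median −0.26). Acon, the mitochondrial aconitase, had 259.8, 237 and 245 CPM in Mef2>Deaf1, against 391, 363 and 385 CPM in the libraries labelled Gsk3CA. Its spread within each genotype was narrow (−0.62, standard error 0.09, adjusted p = 0.00107). l(1)G0156, a subunit of the isocitrate dehydrogenase, changed by −0.72 (adjusted p = 0.00974), and kdn, the citrate synthase, changed by −0.53 (adjusted p = 0.0496). The number of lower genes was 2 to 9 when 1 library was left out, lowest without Mef2>Deaf1 replicate 2 or replicate 1 of the libraries labelled Gsk3CA and highest without replicate 3 of the libraries labelled Gsk3CA. It was 3 without Mef2>Deaf1 replicate 1 or without replicate 2 of the libraries labelled Gsk3CA, 4 without Mef2>Deaf1 replicate 3, 10 with RLE scaling and 0 with the testis covariate.

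For 62 nuclear genes of the respiratory chain and ATP synthase the median was −0.04, with 2 higher and 2 lower. The higher genes were CG40002, a subunit of NADH dehydrogenase (0.46, adjusted p = 0.00161), and CoVIIc, a subunit of cytochrome oxidase (0.29, adjusted p = 0.04). The lower genes were ATPsyn-b, a subunit of the ATP synthase stalk (−0.26, adjusted p = 0.0491), and CG3731, a core subunit of the cytochrome bc1 complex (−0.25, adjusted p = 0.0386). Over the shared Mef2>+ libraries both genotypes lay below the control on this list, with medians of −0.53 in Mef2>Deaf1 (57 lower) and −0.47 in the libraries labelled Gsk3CA (59 lower). Summed, the list was at 5086, 5235 and 4651 CPM in Mef2>Deaf1, against 5360, 4994 and 5610 CPM in the libraries labelled Gsk3CA and 7503, 7089 and 8617 CPM in Mef2>+. The 2 transgenic genotypes overlapped, and both were below Mef2>+. Mef2>whiteRNAi was as low, with 4559, 5166 and 5929 CPM. With RLE scaling 1 gene of the list was higher and 7 were lower. Without replicate 3 of the libraries labelled Gsk3CA 5 were lower, and without any other single library none was, with 1 higher in each of these fits.

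**Figure D3:**
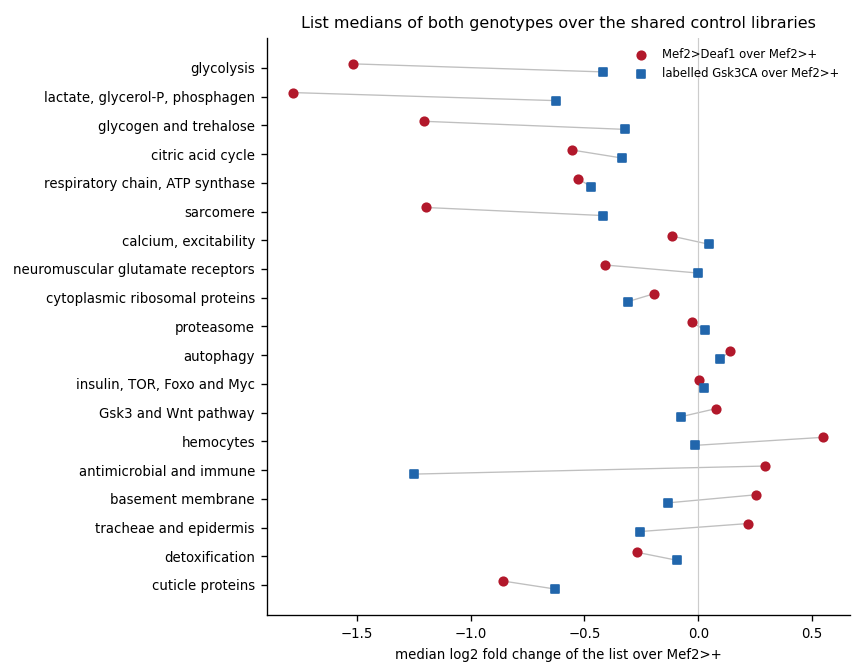
Median log2 fold change over Mef2>+ (x axis) of 19 gene lists (rows) for Mef2>Deaf1 (circles) and the libraries labelled Gsk3CA (squares), both over the same 3 control libraries. The circles lie left of the squares for glycolysis (−1.52 and −0.42) and sarcomere (−1.20 and −0.42), both lie together for the respiratory chain (−0.53 and −0.47), and the square lies far left for the antimicrobial and immune list (0.29 and −1.25).

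Hemocyte genes were higher in Mef2>Deaf1. Of 15 tested, 10 were higher and none was lower, with a median of 0.83. The summed level of the list was 2337, 2037 and 1887 CPM in Mef2>Deaf1, against 1286, 1222 and 1230 CPM in the libraries labelled Gsk3CA and 1397, 1359 and 1841 CPM in Mef2>+. Mef2>Deaf1 stood above every library of both other genotypes, by little for Mef2>+ replicate 3. The RNAi genotypes overlapped Mef2>Deaf1, with 1980, 1927 and 1801 CPM in Mef2>Deaf1RNAi and 1402, 1497 and 1899 CPM in Mef2>whiteRNAi. nimC1, a phagocytosis receptor of plasmatocytes, had 134, 117 and 126 CPM in Mef2>Deaf1, against 50.6, 44.9 and 57.1 CPM in the libraries labelled Gsk3CA and 12.2, 13.7 and 9.69 CPM in Mef2>+. The 3 genotypes were fully apart for nimC1 (1.31, standard error 0.17, adjusted p = 5.5e-04 between Mef2>Deaf1 and the libraries labelled Gsk3CA).

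Pxn, the peroxidasin that hemocytes secrete into basement membrane, stood at 471, 428 and 411 CPM in Mef2>Deaf1, against 196, 173 and 197 CPM in the libraries labelled Gsk3CA and 288, 276 and 370.2 CPM in Mef2>+. It kept its call under every alternative (1.21, standard error 0.14, adjusted p = 3.5e-04), although its exons overlap lncRNA:CR45660 on the same strand. Rarer genes of the list changed too. lz, a Runx factor of crystal cells, was at 2.34, 2.23 and 4.01 CPM in Mef2>Deaf1 and 0.935, 0.839 and 1.504 CPM in the libraries labelled Gsk3CA (1.39, adjusted p = 0.0295). CG42640, the prophenoloxidase PPO3, was at 2.43, 1.42 and 1.83 CPM in Mef2>Deaf1 and 0.468, 0.291 and 0.752 CPM in the libraries labelled Gsk3CA (1.91, adjusted p = 0.0165).

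Looked at after their values were seen, srp, the GATA factor of the blood lineage, changed by 0.92 (adjusted p = 0.00449) and Hml, the hemolectin of plasmatocytes, by 0.94 (adjusted p = 0.0397). Leaving out 1 library gave 5 to 8 higher genes, with 5 without Mef2>Deaf1 replicate 1 or without replicate 1 or replicate 2 of the libraries labelled Gsk3CA. On the 6 libraries alone 5 were higher, and with the testis covariate 1 was.

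Basement membrane genes shared the direction. Of 13 genes, 5 were higher and none was lower (median 0.36), and Pxn belongs to both lists. LanB1, a laminin chain, had 394, 351 and 382 CPM in Mef2>Deaf1, against 209, 204 and 248 CPM in the libraries labelled Gsk3CA and 238, 238 and 248 CPM in Mef2>+. The Mef2>Deaf1 libraries were the high ones (0.77, standard error 0.10, adjusted p = 7.5e-04). LanB2, the gamma chain of laminin, changed by 0.64 (adjusted p = 0.0441), and LanA, the alpha chain looked at after its values were seen, by 0.60 (adjusted p = 0.00904). Leaving out 1 library gave 3 (without replicate 1 or replicate 2 of either genotype) or 4 higher genes, on the 6 libraries alone 2 were higher and with the testis covariate Pxn alone.

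Genes of antimicrobial peptides and immune effectors had the largest positive median, 1.65. Of 26 tested, 15 were higher and 1 was lower in Mef2>Deaf1. The libraries did not overlap for 16 (61.5%, against 43.4% over all genes). The list summed to 573, 277 and 533 CPM in Mef2>Deaf1, against 120.2, 82.3 and 395 CPM in the libraries labelled Gsk3CA and 560.5, 540.0 and 126 CPM in Mef2>+, so the sums overlapped at replicate 3 of the libraries labelled Gsk3CA. Mef2>whiteRNAi ranged widely, with 1374, 1113 and 203.8 CPM. AttB, an attacin against Gram-negative bacteria, stood at 63.2, 5.38 and 26.4 CPM in Mef2>Deaf1, against 3.30, 2.74 and 0.094 CPM in the libraries labelled Gsk3CA and 4.40, 3.85 and 8.42 CPM in Mef2>+. Its replicates were far apart within both genotypes (3.91, standard error 1.03, adjusted p = 0.0185). CecA2, AttD and CecC had no more than 3 counts in any library labelled Gsk3CA, so their folds are lower bounds against 3 counts per library. CecA2, a cecropin, was at least 12.3-fold higher (2.34, 0.971 and 0.693 CPM in Mef2>Deaf1), AttD, another attacin, at least 9.16-fold, and CecC, a further cecropin, at least 5.88-fold.

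Dro, drosocin, was looked at after its values were seen, and had 16.6, 11.9 and 10.5 CPM in Mef2>Deaf1, against 0.935, 0.872 and 0.282 CPM in the libraries labelled Gsk3CA and 6.60, 6.88 and 6.202 CPM in Mef2>+. The 3 genotypes did not overlap, and Dro kept its call under each alternative that could be fitted (4.17, standard error 0.41, adjusted p = 9.6e-05). Mtk, metchnikowin, was chosen in the same way, and had 0.839, 2.75 and 2.92 CPM in Mef2>Deaf1, against 0.205, 0.0969 and 0 CPM in the libraries labelled Gsk3CA. Mef2>+ held 13.5, 12.8 and 5.09 CPM of Mtk, above both (4.25, adjusted p = 0.00479, between Mef2>Deaf1 and the libraries labelled Gsk3CA). PGRP-SA, a receptor for peptidoglycan that feeds the Toll pathway and was chosen in the same way, changed by 1.71 (adjusted p = 0.00141), and Dpt, diptericin, by 2.98 (adjusted p = 0.00773).

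IM10, an immune induced peptide, was the 1 lower gene. It stood at 0.751, 0.850 and 2.23 CPM in Mef2>Deaf1, against 4.85, 4.10 and 1.65 CPM in the libraries labelled Gsk3CA, with an overlap at the replicates numbered 3 (−1.47, adjusted p = 0.0441). Over the shared Mef2>+ libraries, 2 genes of the list were higher and 1 lower in Mef2>Deaf1 (median 0.29), and 3 were higher and 12 lower in the libraries labelled Gsk3CA (median −1.25). The number of genes higher in Mef2>Deaf1 than in the libraries labelled Gsk3CA was 7 and 8 without replicates 2 and 1 of the libraries labelled Gsk3CA and 11 to 14 without any other library. It was 5 on the 6 libraries alone and 1 with the testis covariate, where the median was 2.04. With at least 10 counts required in every library 1 was higher, since that filter leaves few of these genes.

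TepI, a thioester protein related to complement that the rule for the largest changes picked, had 93.0, 69.4 and 84.0 CPM in Mef2>Deaf1, against 9.91, 10.1 and 18.0 CPM in the libraries labelled Gsk3CA and 47.4, 44.8 and 22.7 CPM in Mef2>+. The libraries labelled Gsk3CA were lowest and Mef2>Deaf1 highest (2.70, standard error 0.34, adjusted p = 5.7e-04).

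**Figure D4:**
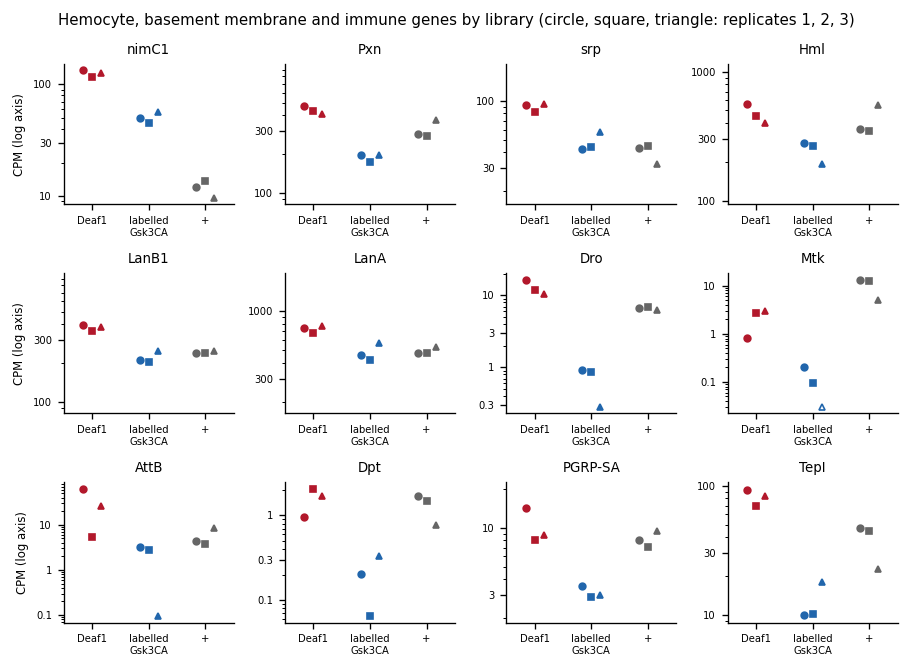
CPM (log axis) of 12 hemocyte, basement membrane and immune genes in each library of Mef2>Deaf1, the libraries labelled Gsk3CA and Mef2>+, with a symbol for each replicate and an open symbol at the bottom for a library with no count. nimC1 runs from 117 to 134 CPM in Mef2>Deaf1, 44.9 to 57.1 CPM in the libraries labelled Gsk3CA and 9.69 to 13.7 CPM in Mef2>+, while Dro is lowest in the libraries labelled Gsk3CA, at 0.282 to 0.935 CPM.

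Of 106 detoxification genes 13 (12.3%) were higher and 31 (29.2%) lower in Mef2>Deaf1 (median −0.31). Over the 9757 genes apart from testis genes 14.6% were higher and 9.9% lower. In the fit over all genes only the lower share of the list lay above the share of those genes. Fitted without testis and tracking genes, 9 of 105 were higher and 38 lower, against 736 and 1246 of 9759 genes. The cytochrome P450 gene Cyp4p2 had the clearest difference of the whole comparison by adjusted p. It held 0.133, 0.121 and 0.149 CPM in Mef2>Deaf1, against 133, 144 and 123 CPM in the libraries labelled Gsk3CA and 35.9, 35.4 and 38.2 CPM in Mef2>+. The Mef2>Deaf1 libraries had no more than 3 counts each, so the gene was at least 996-fold lower (adjusted p = 2.5e-13). In both RNAi genotypes it stood at 40.0 to 55.1 CPM, so its near absence was seen in Mef2>Deaf1 alone among the 5 genotypes. Cyp4p1, a related P450 gene on the same chromosome arm (2R, BDGP6 annotation), was at 1.502, 0.729 and 2.03 CPM in Mef2>Deaf1, against 33.9, 33.3 and 28.7 CPM in the libraries labelled Gsk3CA and 15.5, 13.6 and 18.0 CPM in Mef2>+ (−4.50, standard error 0.28, adjusted p = 3.3e-06). The 3 genotypes did not overlap for either P450 gene.

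The glutathione transferase genes of the list had low levels. GstD6 had no count in Mef2>Deaf1 and 0.672, 0.420 and 4.89 CPM in the libraries labelled Gsk3CA, and was at least 14.9-fold lower (adjusted p = 0.00811). GstD2 was at 0.177, 0 and 0.248 CPM in Mef2>Deaf1 and 1.90, 0.936 and 13.8 CPM in the libraries labelled Gsk3CA (−5.27, adjusted p = 0.00889). Replicate 3 of the libraries labelled Gsk3CA was the high one for both. Cyp4ac3, a further P450 gene, was at 2.21, 1.62 and 0.842 CPM in Mef2>Deaf1 and 30.6, 36.5 and 4.94 CPM in the libraries labelled Gsk3CA (−3.94, adjusted p = 0.00932), with replicate 3 of the libraries labelled Gsk3CA low.

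On the higher side, Cyp6a14, a P450 gene, changed by 2.05 (adjusted p = 0.0464) and GstE9, a glutathione transferase, by 1.89 (adjusted p = 0.0305), both from levels under 3 CPM. CG4688, the transferase GstE14 of the ecdysone path, was at least 5.98-fold higher, most of it in Mef2>Deaf1 replicate 2 (1.66 CPM, against 0.0883 and 0.198 CPM in the other Mef2>Deaf1 libraries). Cyp4e2 and Cyp6d2, P450 genes chosen after their values were seen, had narrow spreads. Cyp4e2 stood at 83.1, 73.3 and 83.2 CPM in Mef2>Deaf1, against 41.3, 42.1 and 43.7 CPM in the libraries labelled Gsk3CA (0.91, adjusted p = 1.1e-04). Cyp6d2 stood at 16.5, 14.3 and 17.1 CPM in Mef2>Deaf1, against 33.6, 32.3 and 38.2 CPM in the libraries labelled Gsk3CA (−1.12, adjusted p = 7.2e-05). When 1 library was left out the lower side held 19 genes (without Mef2>Deaf1 replicate 1), 20 (without replicate 1 of the libraries labelled Gsk3CA) or up to 38, and the higher side held 5 and 6 (without replicates 1 and 2 of the libraries labelled Gsk3CA), 7 (without Mef2>Deaf1 replicate 2) or up to 11. With the testis covariate 1 was higher and 4 lower, and on the 6 libraries alone 3 and 16.

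Of 128 cuticle protein genes 70 passed the filter, of which 6 (8.57%) were higher and 15 (21.4%) lower in Mef2>Deaf1 (median −0.30). Over all genes 13.1% were higher and 17.1% lower, and over the 9757 genes apart from testis genes 14.6% were higher and 9.9% lower. The share of lower cuticle genes lay above both, and the share of higher ones below both. The 41.4% of the list that did not overlap lay near the 43.4% over all genes. Single members are described. The summed level of the list was 130200, 136800 and 114900 CPM in Mef2>Deaf1, against 78980, 68150 and 80540 CPM in the libraries labelled Gsk3CA and 146400, 145500 and 150100 CPM in Mef2>+. Lcp4, a larval cuticle protein chosen after its values were seen, had 46420, 50920 and 35460 CPM in Mef2>Deaf1, against 16810, 15870 and 8443 CPM in the libraries labelled Gsk3CA and 29550, 28730 and 32310 CPM in Mef2>+. The 3 genotypes were apart (1.69, standard error 0.35, adjusted p = 0.00685). Lcp1, another larval cuticle protein chosen in this way, changed by 0.70 (adjusted p = 0.0253).

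The largest falls of the cuticle list were in genes that stood high in some libraries only. Cpr47Eg was at 0.0883, 0.162 and 0.594 CPM in Mef2>Deaf1, against 28.3, 0.387 and 248 CPM in the libraries labelled Gsk3CA and 131, 127 and 63.1 CPM in Mef2>+. Replicate 3 of the libraries labelled Gsk3CA was high, replicate 2 overlapped Mef2>Deaf1 and replicate 1 lay between (−8.39, standard error 1.77, adjusted p = 0.00776). The same order of replicates held for Cpr67Fa1 (at least 88.7-fold lower), TwdlP (at least 52.4-fold lower), Lcp65Ag1 (−6.48, adjusted p = 0.00773) and CG11350, which had 0.442, 0.607 and 0.743 CPM in Mef2>Deaf1 and 72.9, 1.20 and 677 CPM in the libraries labelled Gsk3CA. In limma voom the list had 6 higher and 4 lower genes, and on the 6 libraries alone 2 higher and 6 lower. Without Mef2>Deaf1 replicate 2 it had 3 higher and 8 lower, and without replicate 1 of either genotype or replicate 2 of the libraries labelled Gsk3CA 2 were higher.

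Cpr97Ea, TwdlE and Edg78E were the largest rises of the list, all from low levels. TwdlE, a Tweedle protein of the cuticle, had 3.44, 3.32 and 3.27 CPM in Mef2>Deaf1, against 0.731, 0.387 and 1.08 CPM in the libraries labelled Gsk3CA (2.19, standard error 0.41, adjusted p = 0.00476). Cpr97Ea changed by 2.31 (adjusted p = 0.044) and Edg78E by 1.74 (adjusted p = 0.027). Among 31 genes for chitin and cuticle hardening, 4 (12.9%) were higher and 2 (6.45%) lower, against 13.1% and 17.1% over all genes. obst-A, which protects chitin in the forming cuticle, was at 321, 194 and 222 CPM in Mef2>Deaf1, against 96.8, 94.6 and 118 CPM in the libraries labelled Gsk3CA (1.26, adjusted p = 0.00333), and Mef2>+ was at 260.3, 247 and 276 CPM. yellow-b changed by 1.09 (adjusted p = 0.00597) and yellow-d by 1.04 (adjusted p = 0.0291). The pigment gene y had 0, 0.121 and 0 CPM in Mef2>Deaf1 and 1.08, 0.743 and 1.69 CPM in the libraries labelled Gsk3CA, at least 8.74-fold lower. The other lower gene of the list tracks the testis lists.

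Tracheal and epidermal genes were higher by small amounts. Of 12, 8 were higher and none lower (median 0.36). Tollo, a receptor of the Toll family, had 41.5, 51.7 and 47.7 CPM in Mef2>Deaf1, against 27.7, 25.1 and 39.6 CPM in the libraries labelled Gsk3CA (0.61, adjusted p = 0.0159). trh, the tracheal master regulator, changed by 0.61 (adjusted p = 0.0179), and vvl, a POU factor of tracheae and epidermis, by 0.73 (adjusted p = 0.0213), with an overlap because Mef2>Deaf1 replicate 2 stood at 117 CPM. On the 6 libraries alone and with the testis covariate none of the 12 passed. Without 1 library 1 to 6 passed, 1 without replicate 1 and 2 without replicate 2 of the libraries labelled Gsk3CA, and 3 and 4 without Mef2>Deaf1 replicates 1 and 2.

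Some genes, in or outside the lists, differed by large amounts with little spread. CG9877 had 888, 749.8 and 732 CPM in Mef2>Deaf1, against 92.7, 87.7 and 90.4 CPM in the libraries labelled Gsk3CA and 139, 145 and 133 CPM in Mef2>+. Mef2>Deaf1 stood apart from all other genotypes, which reached at most 246 CPM (3.13, standard error 0.19, adjusted p = 3.1e-06). CG42711 had 15.6, 17.9 and 16.4 CPM in Mef2>Deaf1 and 2.08, 2.13 and 2.12 CPM in the libraries labelled Gsk3CA (2.98, adjusted p = 3.1e-06), with 3.58, 4.05 and 5.21 CPM in Mef2>+. CG11668 was low in the libraries labelled Gsk3CA instead. It had 82.2, 70.7 and 64.5 CPM in Mef2>Deaf1, against 11.7, 9.65 and 14.1 CPM in the libraries labelled Gsk3CA and 68.6, 72.5 and 46.2 CPM in Mef2>+ (2.62, adjusted p = 1.1e-05), and it overlaps snk on the opposite strand.

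Obp56d, an odorant binding protein gene, stood at 178, 88.8 and 118 CPM in Mef2>Deaf1, against 978, 876 and 1317 CPM in the libraries labelled Gsk3CA and 154, 180 and 87.5 CPM in Mef2>+ (−3.04, standard error 0.32, adjusted p = 1.4e-04). Mef2>Deaf1 and Mef2>+ overlapped at the low level. CG4562, a transporter of the multidrug resistance family, was at 0.839, 0.769 and 1.34 CPM in Mef2>Deaf1, against 21.6, 20.1 and 15.2 CPM in the libraries labelled Gsk3CA and 1.28, 0.877 and 1.66 CPM in Mef2>+ (−4.28, adjusted p = 3.1e-06). CG9360 was at 3.14, 3.56 and 3.22 CPM in Mef2>Deaf1, against 38.1, 34.4 and 54.2 CPM in the libraries labelled Gsk3CA (−3.67, adjusted p = 5.1e-05). For these 3 genes the Mef2>Deaf1RNAi and Mef2>whiteRNAi libraries also stood above all of Mef2>Deaf1 and Mef2>+. Obp46a, another odorant binding protein gene, was the reverse, with 11.4, 10.8 and 11.8 CPM in Mef2>Deaf1 and no count in the libraries labelled Gsk3CA. It was at least 105-fold higher (adjusted p = 0.00109), and Mef2>+ held at most 0.0675 CPM. Obp46a and Obp56d were the 1 higher and 1 lower gene among 15 tested odorant binding protein genes, whose median was 0.05.

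**Figure D5:**
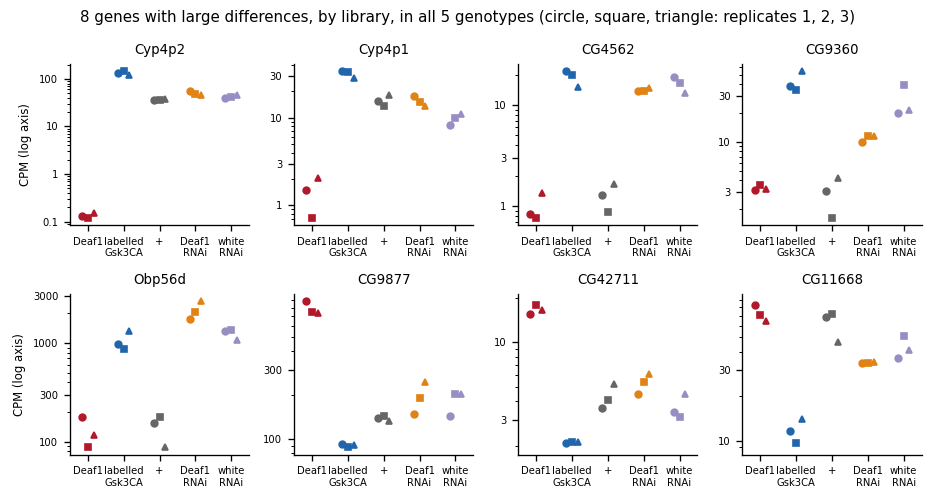
CPM (log axis) of 8 genes in each library of all 5 genotypes, with a symbol for each replicate. Cyp4p2 lies at 0.121 to 0.149 CPM in Mef2>Deaf1 and at 35.4 CPM or more in every other library, CG9877 lies at 732 to 888 CPM in Mef2>Deaf1 and at most 246 CPM elsewhere, and Obp56d, CG4562 and CG9360 are low in both Mef2>Deaf1 and Mef2>+.

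The other genes that the rule for the largest changes named had wider spreads or other levels in Mef2>+. CG5399 stood at 127, 111 and 199.7 CPM in Mef2>Deaf1 and 6.75, 6.75 and 16.4 CPM in the libraries labelled Gsk3CA (3.88, adjusted p = 0.00226). CG9717 (2.81, adjusted p = 5.1e-05), CG1358 (2.72, adjusted p = 0.00566) and CG34454 (2.69, adjusted p = 9.9e-04) were also higher. CG2065, CG13215 and CG15711 changed by 2.75, 3.04 and 2.46. On the lower side, CG15236 changed by −4.26 (adjusted p = 0.00202), with 0.309, 5.06 and 0.594 CPM in Mef2>Deaf1 and 43.0, 49.3 and 24.4 CPM in the libraries labelled Gsk3CA. CG31029 (−3.98) and CG8850 (−3.84) were highest in replicates 1 and 2 of the libraries labelled Gsk3CA, the libraries rich in testis counts. Cpr47Ec (−3.56) and CG32241 (−3.44) were high in Mef2>+ as well.

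Signalling lists gave 5 calls or fewer each. In the Gsk3 and Wnt list 5 of 23 genes were higher and none was lower (median 0.28). That is 21.7% higher, against 13.1% over all genes. The libraries did not overlap for 13 of the 23 (56.5%, against 43.4% over all genes). fz, the Frizzled receptor, had 21.6, 18.5 and 20.7 CPM in Mef2>Deaf1, against 10.4, 8.94 and 13.96 CPM in the libraries labelled Gsk3CA and 10.9, 12.5 and 14.7 CPM in Mef2>+. Mef2>Deaf1 was highest without overlap (0.87, standard error 0.16, adjusted p = 0.00357). arr, the co-receptor Arrow, changed by 0.63 (adjusted p = 0.0138), and Apc2, part of the complex that degrades Armadillo, by 0.56 (adjusted p = 0.0105). Without Mef2>Deaf1 replicate 2, or replicate 1 or replicate 2 of the libraries labelled Gsk3CA, 3 were higher. On the 6 libraries alone 1 of the 23 was, and with the testis covariate none was.

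In the insulin, TOR, Foxo and Myc list 1 of 31 genes was higher and 2 were lower (median −0.02). ImpL2, which binds and restrains insulin-like peptides, had 789, 896 and 686 CPM in Mef2>Deaf1, against 532, 528 and 522 CPM in the libraries labelled Gsk3CA and 987, 1006 and 869 CPM in Mef2>+. The libraries labelled Gsk3CA were the low ones (0.58, adjusted p = 0.0129). dm, the fly Myc, was at 46.5, 33.1 and 32.1 CPM in Mef2>Deaf1 and 66.5, 73.3 and 45.9 CPM in the libraries labelled Gsk3CA, with an overlap (−0.73, adjusted p = 0.0428), and chico, the insulin receptor substrate, changed by −0.48 (adjusted p = 0.0149). With RLE scaling the list had 1 higher and 7 lower genes, and without replicate 3 of the libraries labelled Gsk3CA it had 8 lower. Without Mef2>Deaf1 replicate 2, or replicate 1 or replicate 2 of the libraries labelled Gsk3CA, none was lower.

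In the Activin and BMP list 2 of 17 genes were higher (11.8%, near the 13.1% over all genes). daw, the ligand Dawdle, had 96.4, 59.6 and 139.6 CPM in Mef2>Deaf1, against 36.8, 38.6 and 29.2 CPM in the libraries labelled Gsk3CA and 41.7, 42.4 and 50.4 CPM in Mef2>+. All Mef2>Deaf1 libraries were above the rest (1.5, standard error 0.25, adjusted p = 0.00229). Dad, an inhibitory Smad, overlapped and changed by 0.44 (adjusted p = 0.0384). Of 10 histone deacetylase and sirtuin genes 2 were higher, Rpd3 (0.29, adjusted p = 0.016) and Sir2 (0.24, adjusted p = 0.0184). The median of the list was −0.10. With RLE scaling 1 was higher and 3 were lower. In the fit without testis and tracking genes none was higher and 3 were lower, and on the 6 libraries alone none passed.

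Growth machinery differed little. For 75 cytoplasmic ribosomal protein genes the median was 0.11, with 3 higher, RpS9 (0.37, adjusted p = 0.0303), RpS6 (0.30, adjusted p = 0.0379) and RpS19a (0.29, adjusted p = 0.042). None of the 3 passed with RLE scaling, where the median was 0.01. For 72 mitochondrial ribosomal protein genes it was 0.14, with 5 higher, among them mRpL49 (0.58, adjusted p = 0.00985), mRpL54 and mRpS31, and 1 lower, mRpL39 (−0.38, adjusted p = 0.00249). With RLE scaling, or without replicate 1 or replicate 2 of the libraries labelled Gsk3CA, 1 of them was higher and 1 lower. Nucleolar genes were split, with 4 of 24 higher, led by nst (0.46), Nop56 (0.40) and the polymerase subunit RpI1 (0.38), and 3 lower, Nop17l (−0.74), CG8801 (−0.49) and CG18316 (−0.45), and without Mef2>Deaf1 replicate 3 9 were higher.

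Of 18 translation factors 2 were higher (11.1%, near the 13.1% over all genes). Ef1beta, the exchange factor of translation elongation, was at 845, 856 and 849 CPM in Mef2>Deaf1, against 519.8, 481 and 576 CPM in the libraries labelled Gsk3CA and 639, 616 and 609 CPM in Mef2>+. The replicates were close and the genotypes apart (0.69, standard error 0.08, adjusted p = 2.8e-04). eIF-4a, the initiation helicase, changed by 0.34 (adjusted p = 0.0363). No proteasome gene of 32 passed (edgeR, median −0.09, 1 with an unadjusted p under 0.05), and DESeq2 called 1. Of 13 vacuolar proton pump genes 3 were higher, Vha14-1 (0.39), VhaAC39-1 (0.38) and Vha16-1 (0.37), and at most 2 of the list passed when 1 library was left out.

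Of 20 autophagy genes 3 were lower, and 1 of these tracks the testis lists. Atg9, the membrane protein that supplies lipid to the forming autophagosome, had 138, 149 and 145 CPM in Mef2>Deaf1, against 355, 332 and 283 CPM in the libraries labelled Gsk3CA and 251, 254 and 299.9 CPM in Mef2>+. Mef2>Deaf1 was lowest in every library (−1.16, standard error 0.15, adjusted p = 6.6e-04). CG31033, the fly Atg16, had 32.7, 31.8 and 29.4 CPM in Mef2>Deaf1 and 60.9, 64.8 and 43.9 CPM in the libraries labelled Gsk3CA (−0.85, adjusted p = 0.00687). The median of the list was 0.08.

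Genes of ecdysone and stress turned on single libraries. Of 12 genes of ecdysone synthesis 4 were higher (median 0.83), with 0 to 4 higher when 1 library was left out. spok, an enzyme of ecdysone synthesis in the prothoracic gland, had 0.133, 21.7 and 0 CPM in Mef2>Deaf1 and at most 0.235 CPM in the libraries labelled Gsk3CA. Mef2>Deaf1 replicate 2 alone was high, and without it the log2 fold change was −0.60 (adjusted p = 0.744). sro, another gene of the path, changed by 0.57 (adjusted p = 0.0114) and its exons overlap Rnb. Of 19 ecdysone response genes 2 were higher, ImpE2 (1.19, adjusted p = 0.0346) and Blimp-1 (0.90, adjusted p = 0.0443), both with overlap at replicate 3 of the libraries labelled Gsk3CA, and without that library 7 were higher, while without any other single library none was. Of 22 heat shock genes 3 were higher. That share, 13.6%, lay near the 13.1% over all genes, as did the 10.5% of the ecdysone response list. The libraries did not overlap for 18.2% of the heat shock genes, against 43.4% over all genes. Hsp70Bbb had 9.63, 27.0 and 101 CPM in Mef2>Deaf1 and 2.98, 1.90 and 10.4 CPM in the libraries labelled Gsk3CA (3.20, adjusted p = 0.0301), with overlap. Hsp70Bc changed by 3.02 (adjusted p = 0.0375) and Hsp67Bc, a small heat shock protein, by 2.16 (adjusted p = 0.0125). Reads of the near-identical Hsp70 copies cannot be assigned with certainty. Without replicate 1 or replicate 2 of the libraries labelled Gsk3CA no heat shock gene passed, without replicate 3 of that genotype 9 were higher, without Mef2>Deaf1 replicate 1 5, and without Mef2>Deaf1 replicate 2 or replicate 3 1.

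Marker genes of further tissues were read as a check on what the fillets held. The summed level of the salivary glue genes was 1.502, 7.37 and 16.6 CPM in Mef2>Deaf1 and 23.4, 11.5 and 105.5 CPM in the libraries labelled Gsk3CA, and none of 8 tested genes passed (edgeR, 2 with an unadjusted p under 0.05), while DESeq2 called 3 lower. Fat body genes summed to 9406, 5388 and 9011 CPM in Mef2>Deaf1, against 8050, 8188 and 2328 CPM in the libraries labelled Gsk3CA, with 3 of 20 genes higher and 1 lower (1 or 2 higher when 1 library was left out). Fbp1, a storage protein receptor, had 1799, 1430 and 2838 CPM in Mef2>Deaf1 and 1168, 1130 and 532 CPM in the libraries labelled Gsk3CA (1.10, adjusted p = 0.0403). Mtp, which loads lipid onto lipoproteins, changed by 0.65 (adjusted p = 0.00693), Tsf1, a transferrin, by 0.61 (adjusted p = 0.0291) and bmm, the lipase brummer, by −0.95 (adjusted p = 0.0273).

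Of 27 midgut digestion genes tested 2 were higher and 2 lower. CG5322, an alpha-mannosidase, had 42.9, 35.01 and 35.5 CPM in Mef2>Deaf1, against 16.1, 15.01 and 13.2 CPM in the libraries labelled Gsk3CA (1.35, standard error 0.12, adjusted p = 5.1e-05), and CG6206, another alpha-mannosidase, changed by 0.90 (adjusted p = 0.00304). Mal-A5, a maltase, had 101, 100.2 and 88.9 CPM in Mef2>Deaf1 and 328, 315 and 189 CPM in the libraries labelled Gsk3CA (−1.52, adjusted p = 0.00109), and LysP, a lysozyme, was under 5 CPM throughout (−3.71, adjusted p = 0.0324). Eaat1, the glutamate transporter of glia, was the 1 of 21 neuron and glia genes past the threshold, with 18.0, 19.02 and 18.3 CPM in Mef2>Deaf1, against 9.29, 8.75 and 6.58 CPM in the libraries labelled Gsk3CA and 5.63, 5.46 and 7.199 CPM in Mef2>+ (1.17, adjusted p = 0.00134). Its Mef2>Deaf1 libraries were above those of all other genotypes.

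Uro, the urate oxidase of the Malpighian tubules, had 0.397, 0.0405 and 0.0495 CPM in Mef2>Deaf1, against 18.4, 22.4 and 0.141 CPM in the libraries labelled Gsk3CA. It was high in replicates 1 and 2 of the libraries labelled Gsk3CA, the same libraries that were rich in testis counts (−6.34, adjusted p = 0.0221), and missed the threshold without either of them, without Mef2>Deaf1 replicate 2 or replicate 3, and with the testis covariate. pnr and en, regulators of the imaginal discs, changed by 0.93 (adjusted p = 0.0391) and 0.83 (adjusted p = 0.0243), and Ir by 1.44 (adjusted p = 0.0344). None of these 3 passed without replicate 1 or replicate 2 of the libraries labelled Gsk3CA or on the 6 libraries alone, and 1 gene of their list was higher with any 1 Mef2>Deaf1 library left out. Of 17 integrin and attachment genes 1 was higher, Tsp, the thrombospondin of tendon junctions (0.59, adjusted p = 0.00971), and 2 were lower, rhea, the fly talin (−0.31, adjusted p = 0.0324), and Fit1, a kindlin (−0.23, adjusted p = 0.0281). Of 30 tetraspanin genes 3 were higher, Tsp39D, Tsp66E and Tsp42El, by 0.28 to 0.44, and 8 were lower, led by Tsp42Eq (−3.05, adjusted p = 0.00356), Tsp42En (−2.58, adjusted p = 0.00298) and Tsp33B (at least 25.6-fold lower). When 1 library was left out, or with RLE scaling, at most 1 tetraspanin gene was higher, and 6 to 9 were lower. Of 27 cell cycle genes 2 were lower, the mitotic kinases aur (−1.45, adjusted p = 0.0246) and ial (−1.23, adjusted p = 0.00327). Replicates 1 and 2 of the libraries labelled Gsk3CA were again the high ones for aur (8.94 and 9.14 CPM, against 3.20 CPM in replicate 3). With the testis covariate neither passed.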

How the data were processed

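RNA from filleted larvae was prepared with a stranded mRNA kit and sequenced as paired reads. Per the study's methods the authors mapped reads to the BDGP5 genome with STAR and counted them per gene with HTSeq. The strand setting of HTSeq is not given in the sources used here. The deposited values are whole-number counts per gene symbol, with no normalization. Entries for reads on no gene were dropped, 9.31 to 15.01% of each file.

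The 6 libraries compared held 19914820 to 30320169 counts on genes. Symbols were matched to the BDGP6 annotation by name or a unique older name, 15234 of 15682. Genes were filtered with edgeR's filterByExpr (10930 kept) and scaled by TMM, and edgeR 4.0.16 (R 4.3.3) quasi-likelihood tests were fitted to all 15 libraries by genotype, with Benjamini-Hochberg adjustment. CPM used the TMM library sizes. The fit was tested on simulated data. Single genes had exact permutation tests of log2 CPM with a prior count of 2. Folds against a genotype with 3 counts or fewer in each library use 3 counts per library.

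Testis genes were 2 lists and genes whose log2 CPM correlated at 0.8 or more with their mean over the other 9 libraries. Named genes were, per list, up to 3 passing genes with the largest change in each direction, all glycolytic genes, and the 12 largest changes in each direction among non-overlapping, non-testis genes with a mean log2 CPM of at least 2. The members and lists were chosen with earlier results of these data known. Alternatives were RLE scaling, DESeq2 1.42.0, limma voom 3.58.1, other filters, fewer libraries, no testis genes, a testis covariate and a replicate block. Sequences and genome coordinates were not used here.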

Additional observations from a re-analysis of the deposited data

Results flagged for a closer look

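The share of entries on no annotated feature, which no comparison used, was 5.43 to 6.27% in the Mef2>Deaf1 libraries and 5.41 to 6.07% in the libraries labelled Gsk3CA, against 3.36 to 3.87% in Mef2>+. Both lay above every Mef2>+ library on this measure, and they overlapped each other. Mef2>whiteRNAi (5.299 to 5.878%) and Mef2>Deaf1RNAi (5.848 to 6.754%) were as high, so Mef2>+ alone stood apart from the other genotypes. It does not separate the 2 genotypes of the direct comparison, and its part in the levels given beside Mef2>+ was not tested. No genotype had 4 or more libraries, so single libraries were not tested as outliers.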

How the results depend on the processing

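Against 3297 genes past the threshold (1429 higher and 1868 lower in Mef2>Deaf1), the count was 1020 (281 and 739) on the 6 libraries compared, 1671 (612 and 1059) with at least 10 counts in every library, 1982 (736 and 1246) without testis and tracking genes and 151 (90 and 61) with the testis covariate. With RLE scaling 862 were higher. Leaving out 1 library gave 1147 to 3815 genes in all, 561 to 1191 higher and 586 to 2624 lower. Without replicate 3 of both genotypes, an alternative chosen after seeing the data, 3334 passed (970 higher and 2364 lower). DESeq2 called 3611, limma voom 2842 and the fit with no filter 3580. The cause of these shifts was not tested. RLE scaling moved the median of all genes to −0.04, against 0.06 with TMM.

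Among named genes, spok stood at 7.26 without replicate 3 of both genotypes and changed sign with the testis covariate (−3.28) and without Mef2>Deaf1 replicate 2 (−0.60), IM10 with the covariate (0.22) and Argk with the covariate (0.56). The covariate took 133 of the 160 named genes below the threshold and the 6 libraries alone 78 of 153. Deaf1 and sgg stayed past no threshold in every alternative, Deaf1 at 0.13 to 0.30 and sgg at −0.61 to −0.06.

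The replicate numbers did not pair the libraries, since same-numbered libraries of the 2 genotypes had correlations of −0.35, −0.14 and −0.38 of their deviations. With the replicate block 2758 genes passed, 1133 higher and 1625 lower. Genes with few counts, such as the cecropins, are limited by depth.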
